A study of Mus musculus with 6 samples.

Results

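The genes described here are 9 genes of the erythroid lineage, the cells that mature into red blood cells, chosen by symbol: the globin genes Hba-a1, Hba-a2, Hbb-bs and Hbb-bt, the enzyme genes Car1 and Alas2, the transcription factor genes Klf1 and Gata1, and the receptor gene Epor. Of the 9, 8 were found among the 24346 gene symbols measured in every mouse, and the level of Hbb-bt was not analysed here. They were measured by RNA-Seq in EGFP+ bone marrow cells sorted from the calvaria of 6 CX3CR1-EGFP knock-in mice, whose EGFP reporter labels monocyte-lineage cells, osteoclast precursors among them. All 6 mice were injected with lipopolysaccharide (LPS, 20 mg/kg) into the calvarial periosteum. From that day, 3 mice were given ABT-317, a selective JAK1 inhibitor, by mouth at 60 mg/kg, 2 doses a day, 3 mice were given vehicle, and cells were taken on day 5. Each table holds the cells of 1 mouse. The ages of the sequenced mice were not given in the sources used here, the sort used EGFP alone, and no mouse without LPS was used here.

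Erythroid progenitors arise in the bone marrow from cells that also give rise to megakaryocytes and other myeloid cells. GATA1 and KLF1 switch on the erythroid program, the erythropoietin receptor keeps the progenitors alive through the kinase JAK2, and the globin and heme genes are expressed at their highest level only in the later, hemoglobin-making erythroblasts. Car1, in contrast, is among the genes that mouse progenitors already express early in the lineage. GATA1 is not restricted to red cells, since megakaryocytes, basophils, eosinophils and mast cells express it too.

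The study asked how the inhibitor changes gene expression in osteoclast precursors; here the same contrast was read for the erythroid genes. Values are FPKM, fragments scaled to transcript length and to the mapped total of the library, so levels can be set side by side between genes. Fold changes are differences in log2(FPKM + 1), JAK inhibitor minus vehicle, which understate the change of genes with low values. Each was tested with limma over the 11301 genes that reached 1 FPKM in at least 1 mouse, and 6 of the 8 genes did so: Car1, Klf1, Gata1 and Epor, and Hba-a1 and Hbb-bs, which reached it only in JAK inhibitor-treated mice. The threshold was a Benjamini-Hochberg adjusted p of 0.05, which 0.133% of all tested genes passed (0.0354% with higher and 0.0973% with lower values under JAK inhibitor) and none of the 6 erythroid genes did. By the unadjusted limma p, 3 of the 8 genes found (Hba-a1, Car1 and Klf1) were under 0.05, and 3 (the same genes) had groups that did not overlap, all 3 with higher values in JAK inhibitor-treated mice. Over all tested genes, 16% were under the unadjusted threshold, 6.57% with higher values, and 22% had groups that did not overlap, 9.92% with higher values. Hba-a1 and Hbb-bs entered the test only through the JAK inhibitor group, and Epor only through 1 vehicle-treated mouse, which favours a difference in that direction. The differences of these genes are given as a description with no test. That leaves Car1 and Klf1 of the 3 genes under the unadjusted threshold. The depth of the libraries is unknown, and their FPKM summed to between 688372 and 775790. The cells carried the monocyte genes of the labelled population. Lyz2 (lysozyme) lay between 23900 and 32890 FPKM and Csf1r (the receptor for macrophage colony-stimulating factor) between 354.9 and 421.9. Cx3cr1 (the reporter's own gene) had 15.5 FPKM in vehicle-treated mouse 3 and between 29.5 and 36.1 in the other mice.

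Car1, on chromosome 3 from 14766216 to 14808368 on the minus strand (GENCODE M21, GRCm38), encodes carbonic anhydrase 1, a cytosolic enzyme of red cells, and was the most abundant of the 8 genes. Its FPKM was 24.6, 36.3 and 2.202 in vehicle-treated mice 1 to 3 and 70.5, 58.7 and 84.4 in JAK inhibitor-treated mice 1 to 3. All JAK inhibitor-treated mice lay above all vehicle-treated mice, and vehicle-treated mouse 3 lay far below the other 5. Vehicle-treated mice averaged 21.0 ± 17.3 FPKM and JAK inhibitor-treated mice 71.2 ± 12.9 (SD, n = 3 each), a ratio of 3.38. In the rank order of all 24346 genes, between 5.82% and 7.84% of genes had a higher level in the JAK inhibitor-treated mice, against 11.6% and 15.3% in vehicle-treated mice 2 and 1 and 38.3% in vehicle-treated mouse 3. The difference on the log2 scale was 2.30 ± 0.75 (SE, unadjusted p = 0.0137, adjusted p = 0.196 in limma). By an exact permutation test over the mice (2-sided) p was 0.1, and 3 mice against 3 cannot give a smaller one. Without vehicle-treated mouse 3, the log2 fold change was smaller and the spread was smaller too (1.21 ± 0.18 SE), and the adjusted p in limma was 0.0229, in a fit in which 94 genes passed the threshold against 15 with all mice. Fewer erythroid cells among the sorted cells and less RNA per cell cannot be told apart in these bulk samples.

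**Figure D1:**
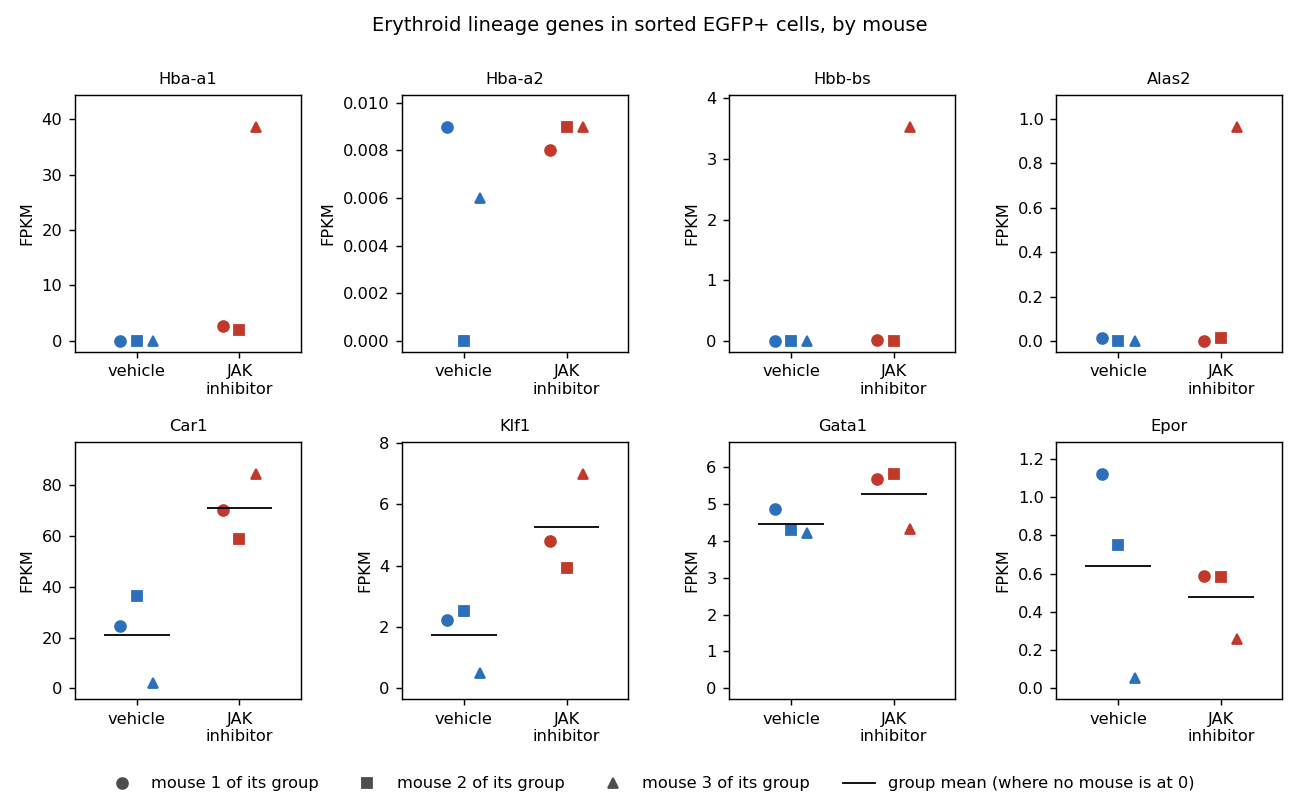
FPKM of the 8 erythroid genes in each mouse, 1 panel per gene with its own linear axis from 0; symbols are the 3 mice of each group and the line is the group mean, drawn only where no mouse is listed at 0. Car1, Klf1 and Hba-a1 were higher in all JAK inhibitor-treated mice than in any vehicle-treated mouse, whereas Hbb-bs and Alas2 stood above 0.1 FPKM only in JAK inhibitor-treated mouse 3.

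Klf1, on chromosome 8 from 84901928 to 84905291 on the plus strand, encodes the transcription factor that activates the adult beta-globin gene and many genes of the red cell membrane and of heme synthesis. Its FPKM was 2.24, 2.52 and 0.501 in vehicle-treated mice 1 to 3 and 4.82, 3.93 and 6.98 in JAK inhibitor-treated mice 1 to 3. The groups did not overlap, and vehicle-treated mouse 3 was again the lowest and JAK inhibitor-treated mouse 3 the highest. Vehicle-treated mice averaged 1.76 ± 1.10 FPKM and JAK inhibitor-treated mice 5.24 ± 1.57 (SD, n = 3 each). The difference on the log2 scale was 1.25 ± 0.34 (SE, unadjusted p = 0.00491, adjusted p = 0.147 in limma), with p = 0.1 in the exact permutation test. Without vehicle-treated mouse 3 the log2 fold change was 0.86.

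Gata1, on chromosome X from 7959260 to 7978071 on the minus strand, encodes the zinc finger factor that partners KLF1 in erythroid cells. Its FPKM was 4.86, 4.30 and 4.22 with vehicle and 5.67, 5.80 and 4.32 with JAK inhibitor. The groups overlapped, since JAK inhibitor-treated mouse 3, the mouse with the highest Klf1, had the lowest Gata1 of its group. The difference on the log2 scale was 0.19 ± 0.16 (SE, adjusted p = 0.612 in limma). Vehicle-treated mouse 3, which had little Car1 and Klf1, had a Gata1 level close to that of vehicle-treated mouse 2.

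The ratio of Klf1 to Gata1 within a mouse was 0.461, 0.587 and 0.119 with vehicle and 0.849, 0.678 and 1.62 with JAK inhibitor. The ratio of Car1 to Gata1 was 5.07, 8.44 and 0.522 with vehicle and 12.4, 10.1 and 19.5 with JAK inhibitor. Neither ratio overlapped between the groups (exact 2-sided permutation test of the log2 ratios, p = 0.1, and 0.15 adjusted over the 3 ratios computed). Car1 and Klf1 already had groups that did not overlap, and Gata1 varied little, from 4.22 to 5.80 FPKM. The non-overlap of these ratios, and with it their p, followed from those values and is no separate result. The ratio of Car1 to Klf1 was 10.98, 14.4 and 4.40 with vehicle and 14.6, 14.9 and 12.1 with JAK inhibitor, with groups that overlapped (exact permutation test, p = 0.2, adjusted p = 0.2). These ratios do not depend on how a library was scaled.

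Epor, on chromosome 9 from 21958897 to 21963506 on the minus strand, encodes the erythropoietin receptor, which signals through JAK2 rather than the kinase that ABT-317 targets. Its FPKM was 1.12, 0.747 and 0.053 with vehicle and 0.589, 0.583 and 0.256 with JAK inhibitor. The vehicle-treated mice held both the highest and the lowest value, and the gene passed the filter on low values through vehicle-treated mouse 1 alone. The difference on the log2 scale was -0.10 ± 0.30 (SE), given with no test for that reason. Its sign changed with a pseudocount of 0.1 and without JAK inhibitor-treated mouse 3.

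The 3 globin genes found were below 0.1 FPKM in all vehicle-treated mice. Hba-a1, on chromosome 11 from 32283511 to 32284465 on the plus strand, encodes the adult alpha-globin chain of hemoglobin. It was listed at 0 in vehicle-treated mouse 2, had 0.064 and 0.057 FPKM in vehicle-treated mice 1 and 3, and had 2.64, 1.96 and 38.6 in JAK inhibitor-treated mice 1 to 3. All JAK inhibitor-treated mice lay above all vehicle-treated mice, and mouse 3 of the JAK inhibitor group lay far above the others. The difference on the log2 scale was 2.86 ± 0.82 (SE), given with no test for the reason above. It was 1.66 without JAK inhibitor-treated mouse 3 and 5.46 with a pseudocount of 0.1. The level of Hba-a1 was 3.74%, 3.33% and 45.8% of that of Car1 in JAK inhibitor-treated mice 1 to 3, against 0.26% and 2.59% in vehicle-treated mice 1 and 3. The vehicle percentages rest on Hba-a1 values that cannot be told from 0, and they differ through Car1 (24.6 and 2.202 FPKM).

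Hbb-bs, on chromosome 7 from 103826534 to 103828096 on the minus strand, encodes an adult beta-globin chain. It had 3.53 FPKM in JAK inhibitor-treated mouse 3, 0.012 and 0.001 in mice 1 and 2 of that group, and 0.002 in vehicle-treated mouse 2, and it was listed at 0 in vehicle-treated mice 1 and 3. The groups overlapped, and the whole difference lay in 1 mouse (log2 difference 0.73 ± 0.53 SE). Without that mouse the gene no longer passed the filter on low values. Hba-a2, on chromosome 11 from 32296489 to 32297298, did not pass 0.009 FPKM in any mouse and was not tested. Alas2, on chromosome X from 150547375 to 150570638, encodes the erythroid form of the first enzyme of heme synthesis. It had 0.965 FPKM in JAK inhibitor-treated mouse 3 and 0.014 in mouse 2 of that group and in vehicle-treated mouse 1, was listed at 0 in the other 3 mice, and stayed just under the filter. The 3 globin genes together summed to 42.2 FPKM in JAK inhibitor-treated mouse 3 and 2.66 and 1.97 in mice 1 and 2, against 0.073, 0.002 and 0.063 in vehicle-treated mice 1 to 3. That gap depended on the symbols summed. With the other adult beta-globin symbols Hbb-b1 and Hbb-b2 added, a sum chosen after seeing the data, the totals were 3.80, 2.49 and 55.7 with JAK inhibitor and 3.05, 1.64 and 2.57 with vehicle, so that the groups overlapped and only JAK inhibitor-treated mouse 3 stood apart.

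**Figure D2:**
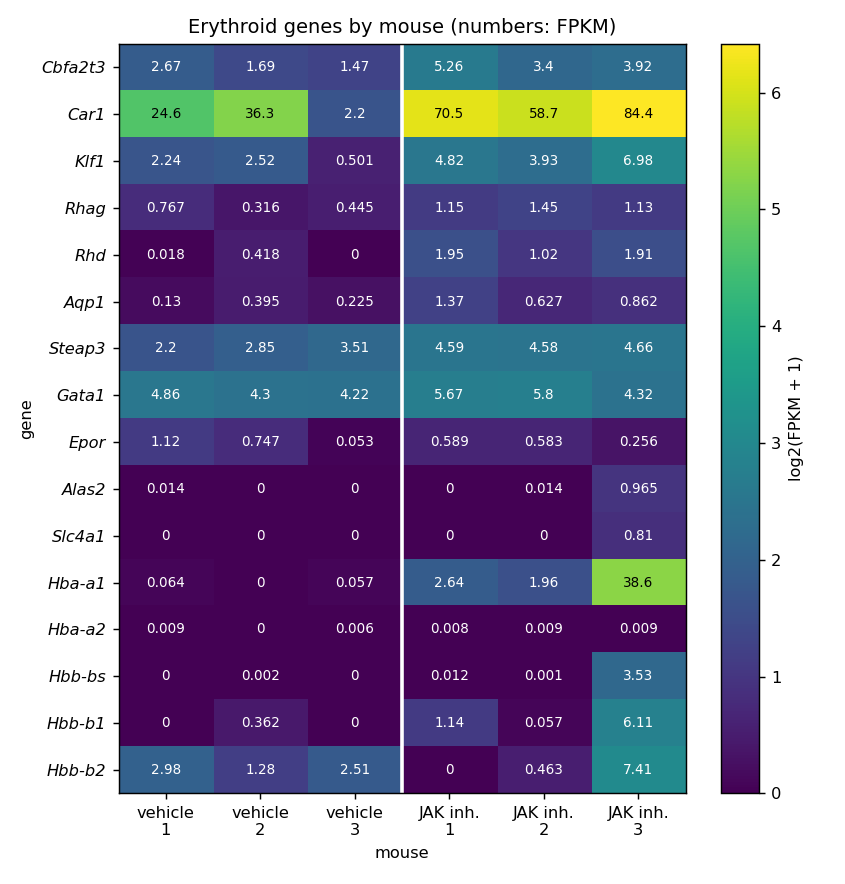
Levels of 16 erythroid genes by mouse, coloured by log2(FPKM + 1) with the FPKM printed in each cell; vehicle-treated mice are on the left and JAK inhibitor-treated mice on the right. Car1, Klf1, Rhag and Rhd were higher throughout the JAK inhibitor group, whereas the late genes Alas2, Slc4a1 and Hbb-bs had a level above 0.1 FPKM in JAK inhibitor-treated mouse 3 only.

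The split of reads between globin copies is uncertain. The coding sequences of Hba-a1 and Hba-a2 are both 429 bases long and differ at 1 base, written C381T with positions counted from 1 at the first base of the start codon. Those of Hbb-bs and Hbb-bt are both 444 bases long and also differ at 1 base, C417T. The stretches around these bases are shown because they are the only places in the coding sequence where a read can tell the copies apart (GENCODE M21 transcripts, 5′ to 3′, the differing base in capitals).
Hba-a1: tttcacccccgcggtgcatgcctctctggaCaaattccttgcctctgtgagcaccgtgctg
Hba-a2: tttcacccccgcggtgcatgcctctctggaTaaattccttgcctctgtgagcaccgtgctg
Hbb-bs: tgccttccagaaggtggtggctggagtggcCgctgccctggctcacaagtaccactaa
Hbb-bt: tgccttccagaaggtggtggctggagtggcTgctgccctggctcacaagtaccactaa
Of the 75-base windows of the Hba-a1 transcript, the length of the reads, 62.2% occur unchanged in that of Hba-a2, and 81.0% of those of Hba-a2 occur in Hba-a1. For Hbb-bs, 64.3% of the windows occur in Hbb-bt. The level of Hba-a1 is therefore best read as the level of both alpha-globin genes. Their sum gave a log2 fold change of 2.85, which could hardly differ from that of Hba-a1, since Hba-a2 did not pass 0.009 FPKM. The tables also hold the symbols Hbb-b1 and Hbb-b2, used for the beta-globin copies of other mouse strains. Hbb-b1 had 1.14, 0.057 and 6.11 FPKM with JAK inhibitor and 0.362 in vehicle-treated mouse 2, and was listed at 0 in vehicle-treated mice 1 and 3. For Hbb-b2 the values were 2.98, 1.28 and 2.51 FPKM with vehicle, and 0 (as listed), 0.463 and 7.41 with JAK inhibitor. JAK inhibitor-treated mouse 3 thus had the highest value of every beta-globin symbol, and Hbb-b2 was the only one at 1 FPKM or more in all vehicle-treated mice. The embryonic and theta globin genes Hba-x, Hbb-bh1, Hbb-bh2, Hbb-y, Hbq1a and Hbq1b were listed at 0 in all 6 mice.

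The promoters of 4 of the genes, Klf1 and Hba-a1 with groups that did not overlap and Hbb-bs and Gata1 with groups that did, are shown because erythroid genes are known to carry sites for GATA1 and KLF1 there. The sequences are the 250 bases before the RefSeq gene start (GRCm38.p6, 5′ to 3′ on the strand of the gene). Capitals mark AGATAA or TGATAA, letters bound by GATA factors, and CACACCC, letters of the type bound by KLF1, on either strand.
Klf1, chr8:84901732-84901981, plus strand: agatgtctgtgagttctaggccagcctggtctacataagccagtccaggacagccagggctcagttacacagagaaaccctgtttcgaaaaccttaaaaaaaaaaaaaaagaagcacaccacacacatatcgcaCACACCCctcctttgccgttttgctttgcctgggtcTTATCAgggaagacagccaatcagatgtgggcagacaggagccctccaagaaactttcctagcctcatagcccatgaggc
Hba-a1, chr11:32283422-32283671, plus strand: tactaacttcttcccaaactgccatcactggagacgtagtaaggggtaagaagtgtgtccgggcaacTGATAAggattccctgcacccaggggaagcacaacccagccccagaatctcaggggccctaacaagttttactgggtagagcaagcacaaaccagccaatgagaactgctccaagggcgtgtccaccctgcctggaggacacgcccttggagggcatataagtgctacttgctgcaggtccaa
Hbb-bs, chr7:103827929-103828178, minus strand: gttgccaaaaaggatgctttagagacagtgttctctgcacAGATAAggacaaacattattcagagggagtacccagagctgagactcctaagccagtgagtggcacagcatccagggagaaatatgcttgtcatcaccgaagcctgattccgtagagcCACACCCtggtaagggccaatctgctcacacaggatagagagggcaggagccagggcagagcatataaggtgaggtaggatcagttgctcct
Gata1, chrX:7967911-7968160, minus strand: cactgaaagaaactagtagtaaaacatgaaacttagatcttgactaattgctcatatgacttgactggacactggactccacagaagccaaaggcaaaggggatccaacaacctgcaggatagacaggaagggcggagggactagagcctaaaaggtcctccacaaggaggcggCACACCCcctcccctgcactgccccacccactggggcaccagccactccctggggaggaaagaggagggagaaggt
Promoters were available for 8 of the 9 genes, with Hbb-bt among them and without Car1. Of these 8, 6 (Klf1, Hba-a1, Hba-a2, Hbb-bs, Alas2 and Epor) held a GATA motif in this window, against 16.6% of 32851 promoters. CACACCC was held by 3 (Klf1, Hbb-bs and Gata1), against 6.93%, and Hbb-bt held neither motif. Klf1 and Hbb-bs held both motifs and differed in level, 3.93 to 6.98 FPKM against at most 3.53 in the JAK inhibitor-treated mice. The 250 bases of Hba-a2 are those of Hba-a1 moved by a few bases, so these letters do not tell the copies apart and their GATA motifs are not separate matches. A match is a description of the letters and not a measurement of binding. Car1 had no entry.

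Around these genes, 6 lists of erythroid genes with 79 different symbols were read. Of the 74 found and 51 tested, 7 were higher and 3 were lower at an unadjusted limma p under 0.05, and 8 were higher and 4 lower in groups that did not overlap. Over all tested genes the shares were 6.57% and 9.4% at that p and 9.92% and 12.1% without overlap, and no listed gene passed the adjusted threshold. However, 7 of the 51 reached 1 FPKM only in JAK inhibitor-treated mice, and 1 only in a vehicle-treated mouse, and 3 of the 7 higher genes (Rhd, Rhag and Aqp1) were among them. Of the 43 that reached it in both groups, 4 were higher and 3 lower at that p. Over all 51 the median log2 fold change was 0.066, against -0.004 over all tested genes. Of the 7 higher genes, 3 encode surface proteins, 3 transcription factors and 1 an enzyme of iron entry. Of the 9 other globin symbols, 8 were found, 6 of them at 0 in every mouse, and the 2 tested (Hbb-b1 and Hbb-b2) were not under the unadjusted threshold.

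Of the 20 genes of the red cell membrane and surface, 18 were found and 10 tested. Of these, 6 reached 1 FPKM only in JAK inhibitor-treated mice, which favours higher values there, and of the other 4 none was under the unadjusted threshold in limma. Over all 10, 9 had higher and 1 lower values (median log2 difference 0.36). The 3 with the smallest p are given as a description with no test, since they were among the 6. Rhd, a Rhesus blood group protein, had 1.95, 1.02 and 1.91 FPKM with JAK inhibitor, 0.018 and 0.418 in vehicle-treated mice 1 and 2, and was listed at 0 in vehicle-treated mouse 3. Its difference on the log2 scale was 1.19 ± 0.26 (SE). Rhag, its partner in the membrane, had 0.767, 0.316 and 0.445 FPKM with vehicle and 1.153, 1.45 and 1.13 with JAK inhibitor (log2 difference 0.58 ± 0.22 SE). Aqp1, the water channel of red cells, had 0.13, 0.395 and 0.225 FPKM with vehicle and 1.37, 0.627 and 0.862 with JAK inhibitor (log2 difference 0.63 ± 0.25 SE). All 3 had groups that did not overlap, at levels near 1 FPKM. Of the 4 listed genes with the highest mean, Gypc (glycophorin C) lay between 19.2 and 27.0 FPKM over the 6 mice, and Tspan33, Icam4 and Xk lay below 4.31, each with groups that overlapped. Slc4a1, the anion exchanger of mature red cells, had 0.81 FPKM in JAK inhibitor-treated mouse 3 and was listed at 0 in the other 5 mice; it was chosen after its values were seen.

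Of the 13 erythroid transcription factor genes, all were found and 9 were tested, with 6 higher and 3 lower, 3 of the higher ones under the unadjusted threshold (median 0.25). Cbfa2t3, which encodes the corepressor ETO2 of the GATA1 and TAL1 complex, had 2.67, 1.69 and 1.47 FPKM with vehicle and 5.26, 3.40 and 3.92 with JAK inhibitor. Its difference on the log2 scale was 0.83 ± 0.22 (SE, unadjusted p = 0.00487, adjusted p = 0.147 in limma). Lmo2, the bridging factor of the same complex, differed by 0.35 ± 0.12 on the log2 scale (SE, limma adjusted p = 0.215), from 67.7 ± 9.92 to 85.9 ± 6.40 FPKM (SD, n = 3 each). Myb, a factor of proliferating progenitors of several lineages, differed by 0.38 ± 0.14 on the log2 scale (SE, limma adjusted p = 0.238), from 35.2 ± 5.39 to 46.1 ± 6.43 FPKM (SD, n = 3 per group). These 3 had groups that did not overlap. Nfe2 lay between 144.6 and 254.1 FPKM and E2f4 between 64.3 and 72.2, with groups that overlapped. Lmo2, Myb, Nfe2 and E2f4 are also expressed in myeloid progenitors.

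Of the 14 genes of heme synthesis and iron entry, all were found and tested, with 6 higher and 8 lower (median -0.07 on the log2 scale), 1 under the unadjusted threshold in each direction. Steap3, a ferrireductase that readies transferrin iron for import, had 2.198, 2.85 and 3.51 FPKM with vehicle and 4.59, 4.58 and 4.66 with JAK inhibitor (log2 difference 0.56 ± 0.18 SE, limma adjusted p = 0.192). Fech, the last enzyme of the pathway, went the other way, with 29.8, 30.8 and 38.0 FPKM against 24.2, 25.6 and 25.2 (log2 difference -0.37 ± 0.12 SE, limma adjusted p = 0.191). Urod (62.0 to 89.3 FPKM), an enzyme that every heme-making cell uses, and the mitochondrial carrier gene Slc25a38 (25.9 to 37.2) overlapped between the groups. Urod and Fech, shared by all cells, were thus well expressed where the erythroid Alas2 was near 0.

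Of the 14 genes of red cell enzymes and maturation, 12 were found and 8 tested, with 4 higher and 4 lower (median 0.04), 0 higher and 1 lower under the unadjusted threshold. The abundant Prdx2 (a peroxidase, 274.0 to 360.6 FPKM), Bnip3l (a mitophagy receptor, 85.6 to 102.6), Cat (catalase, 54.3 to 70.7) and Blvrb (biliverdin reductase B, 47.1 to 73.9), which many cell types express, overlapped between the groups. Hebp1, a heme-binding protein, was lower, with 1.62, 1.88 and 5.19 FPKM with vehicle and 1.01, 1.09 and 0.792 with JAK inhibitor (log2 difference -0.88 ± 0.32 SE, limma adjusted p = 0.233).

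Of the 9 genes of erythropoietin receptor signaling, 8 were tested, with 4 higher and 4 lower (median -0.01) and 1 under the unadjusted threshold. That gene was Socs3, a feedback inhibitor that many cytokines induce, with 19.9, 9.48 and 52.3 FPKM with vehicle and 8.30, 7.74 and 9.28 with JAK inhibitor (log2 difference -1.27 ± 0.47 SE, limma adjusted p = 0.238). Jak2 (11.2 to 22.3 FPKM), Stat5b (22.4 to 25.5) and Bcl2l1 (9.58 to 12.0) overlapped between the groups.

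**Figure D3:**
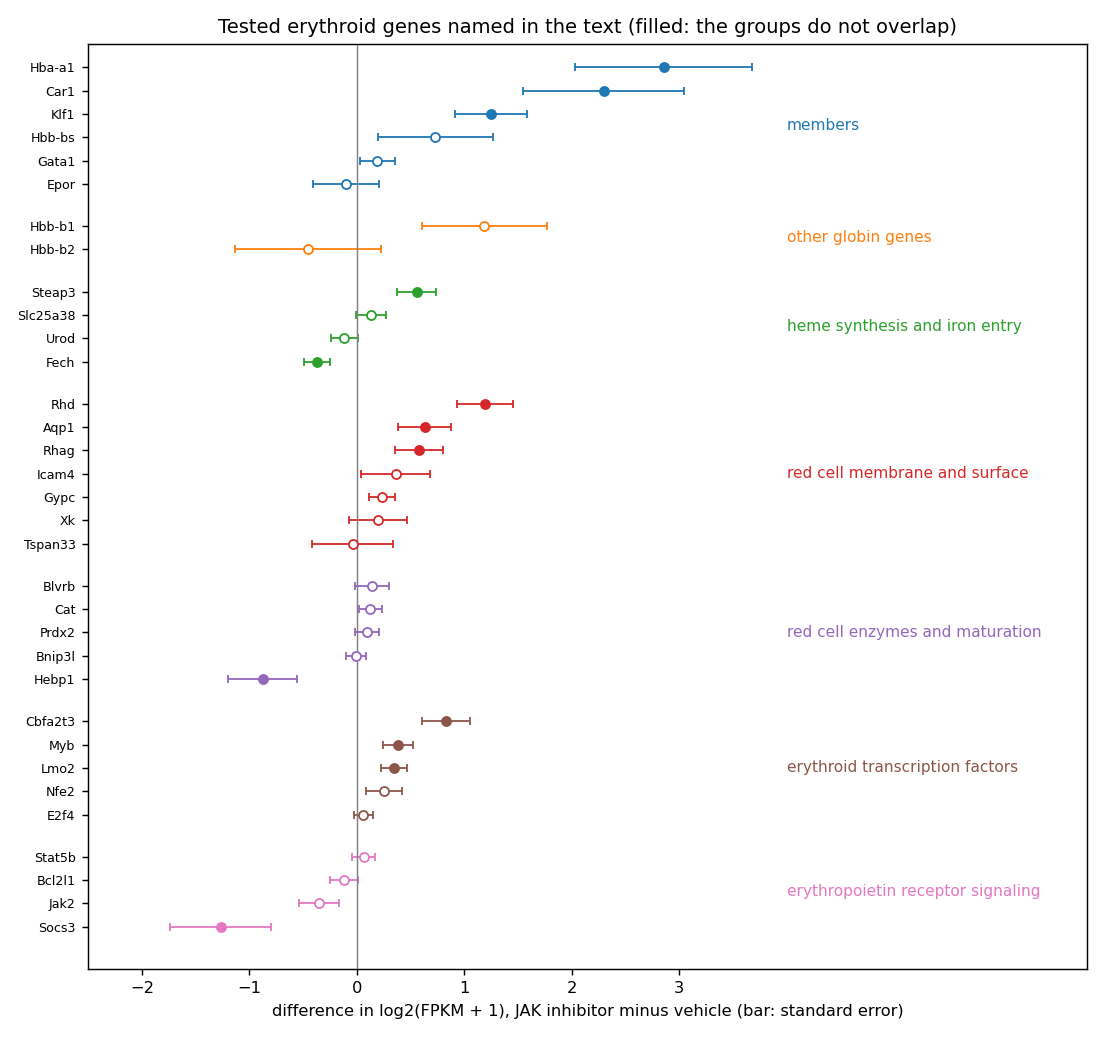
Differences in log2(FPKM + 1), JAK inhibitor minus vehicle, for the 6 tested erythroid genes and 27 of the tested genes of the 6 lists, those named in the text, with bars for the standard error of limma and filled points where the groups do not overlap. Hba-a1 (2.86), Car1 (2.30) and Klf1 (1.25) lie on the right, Rhd (1.19) leads the membrane genes, and the 4 genes of heme synthesis and iron entry drawn lie within 0.56 of 0.

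Some neutrophil granule genes differed between the groups beside these genes, in both directions, and none passed the adjusted threshold in the main fit. Of the genes with higher values with JAK inhibitor and groups that did not overlap, Mpo (myeloperoxidase) had 3531, 4135 and 1650 FPKM with vehicle and 5234, 6106 and 5216 with JAK inhibitor (log2 fold change 0.93), Elane (neutrophil elastase) had a log2 fold change of 1.12 and Camp (cathelicidin, of the later specific granules) of 1.64. Ltf (lactoferrin) and Ngp, also of the specific granules, overlapped between the groups, and Mmp8 (neutrophil collagenase) had a log2 fold change of -1.06 with groups that did not overlap. Vehicle-treated mouse 3 had the lowest Mpo, Elane and Camp as well as the lowest Car1 and Klf1. Over the neutrophil list, 3 of 9 tested genes were higher and 2 lower at an unadjusted p under 0.05, S100a8 and S100a9 overlapped, and the summed FPKM overlapped between the groups (17127 to 23226 with vehicle, 17256 to 24397 with JAK inhibitor). In the main fit the lowest adjusted p in limma was 0.0781, for Camp. Elane passed the threshold without vehicle-treated mouse 3 (adjusted p = 0.0101). Camp did so with library weights (0.0385) and when either JAK inhibitor-treated mouse 2 (0.0448) or vehicle-treated mouse 2 (0.0499) was left out, and Mmp8 when vehicle-treated mouse 3 was (0.0455) and with the replicate number as a block (0.0233). Their part in the erythroid values was not tested.

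Cells of other lineages that express GATA1 were plain in the data. The basophil protease genes Prss34 (923.2 to 2338 FPKM) and Mcpt8 (462.6 to 1130) were among the abundant genes, Cpa3 lay between 115.0 and 195.6 and the eosinophil granule gene Prg2 between 195.8 and 645.5. Of the 10 genes of eosinophils, basophils and mast cells, all tested, 2 (Mcpt8 and Epx) were higher at an unadjusted p under 0.05, both with groups that overlapped, and their summed level ranged from 1856 to 3689 FPKM with vehicle and from 2679 to 4225 with JAK inhibitor. Of the 8 megakaryocyte and platelet genes, 3 were tested; Pf4 (platelet factor 4), the 1 gene of the list under the unadjusted threshold, had 30.04, 41.4 and 13.6 FPKM with vehicle and 16.3, 4.26 and 3.79 with JAK inhibitor, and both it and Itga2b overlapped between the groups. Vwf (0.445 to 1.31 FPKM) and Gp9 (0.76 at most) were low. The summed level of that list was 24.6 to 58.1 FPKM with vehicle and 9.83 to 26.0 with JAK inhibitor, with an overlap of 1 mouse each, and Ppbp was at or near 0. How much of Gata1 came from these cells was not tested.

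Of the stem and progenitor genes, Cd34 had 24.8, 41.9 and 19.8 FPKM with vehicle and 37.9, 46.6 and 41.1 with JAK inhibitor, and Kit 8.48, 10.3 and 6.70 against 8.06, 12.8 and 12.4; both overlapped between the groups, as did Flt3 (20.3 to 30.4) and Gata2 (9.20 to 21.8), and the list had 1 higher and 1 lower gene among 5 tested at an unadjusted p under 0.05. Meis1 was the lower one, from 4.75 to 3.31 FPKM in the mean. The monocyte list had 0 higher and 3 lower genes of 8 at that threshold, with a summed level of 28229 to 37477 FPKM against 28721 to 38125; 2 of the 3, Cd14 and Fcgr1, had groups that did not overlap, and Ly6c2 (2751 to 4617 FPKM) and Ccr2 (155.9 to 200.1) overlapped. The list of macrophages of the erythroblastic island, the niche in which erythroblasts mature, had 0 higher and 1 lower gene of 8 tested (Mertk, a receptor for dying cells), with sums of 202.7 to 245.6 against 163.5 to 210.3 FPKM, and its genes Siglec1, Cd163 and Timd4 were at 2.15 FPKM or less, whereas Hmox1 (71.6 to 129.3), Adgre1 (63.2 to 91.9), Vcam1 (9.21 to 23.3) and Slc40a1 (5.50 to 9.15) were expressed and overlapped. The lymphocyte list had 1 higher gene of 6 tested, Nkg7, which made up most of its summed level (197.4 to 398.6 FPKM with vehicle, 528.8 to 595.5 with JAK inhibitor), whereas Ms4a1 and Cd3e were near 0, and Cd79b (26.7 to 35.4), Igll1 (3.61 at most) and Vpreb1 (2.16 at most) overlapped.

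**Figure D4:**
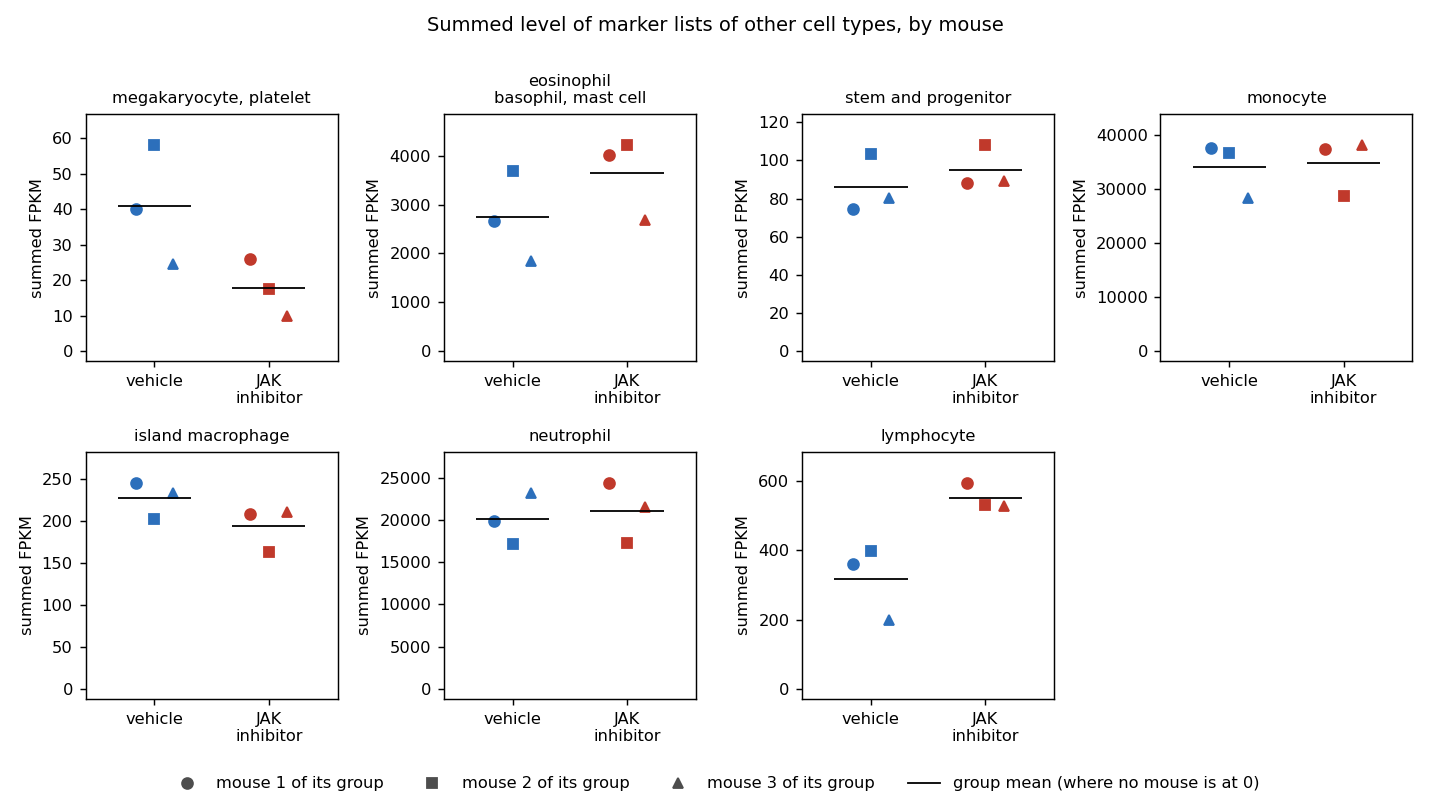
Summed FPKM of 7 lists of marker genes of other cell types in each mouse, on linear axes from 0, with symbols for the 3 mice of each group and a line for the group mean. The lymphocyte sum, mostly Nkg7, parted between the groups, whereas the neutrophil, monocyte and progenitor sums overlapped.

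The profiles over the 6 mice most like the mean profile of each group of erythroid genes were sought among 10477 other genes with a mean of at least 1 FPKM. The measure was the root mean square difference of centred log2(FPKM + 1) values. The globin and enzyme means joined unlike genes. Hba-a2 and Alas2 reached at most 0.009 and 0.965 FPKM, and Hba-a1 and Car1 reached 38.6 and 84.4. A gene near such a mean need not resemble any single member. Nearest to the mean profile of the globin genes was Hbb-b1 (0.33), followed by Mir690, Nradd, Jchain and Tmem26 (0.33 to 0.48, against a spread of 0.88 in the profile itself). Of these, Mir690 was listed at 0 in all mice but JAK inhibitor-treated mouse 3, where it had 6.17 FPKM, and Jchain, the joining chain of antibodies, had 7.05 FPKM there and at most 0.365 elsewhere. Nearest to the mean of the enzyme genes were Plxdc1, Pdlim1, Gm5086, Elane and Mgl2 (0.24 to 0.31, against 0.89). Each had groups that did not overlap and its lowest value in vehicle-treated mouse 3, a shape that the choice by profile favours. Pdlim1 had 32.2, 34.2 and 7.26 FPKM with vehicle and 53.9, 52.7 and 55.2 with JAK inhibitor. Klf1, Gata1 and Epor differed among themselves (log2 fold changes 1.25, 0.19 and -0.10), so a gene near their mean need not resemble any of them. Nearest to that mean were Oxct1, Lta4h, Smpdl3a, Klf11 and Prtn3 (0.04 to 0.06, against 0.33). Their lowest value was also in vehicle-treated mouse 3, again a shape that the choice favours. None is a gene of hemoglobin or of the red cell membrane except Hbb-b1.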

How the data were processed

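Expression values of EGFP+ cells from 3 JAK inhibitor-treated and 3 vehicle-treated mice were used. The authors deposited FPKM, 1 table per mouse; the submitters' processing notes name TopHat2 2.0.13, Bowtie2 2.2.3, SAMtools 0.1.19, Cufflinks 2.2.1 and build mm10, whereas the annotation and the strand setting were not given in the sources used here. The library kit differs between the methods (TruSeq Stranded mRNA) and the labels (SMART-Seq HT with Nextera). Low values gave pairwise depth ratios up to 0.24 on the log2 scale from peaks of at most 60 genes, a rough estimate, so no counting intervals are given.

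Here, log2(FPKM + 1) of genes with at least 1 FPKM in at least 1 mouse was compared with limma 3.58.1 in R 4.3.3 (trended empirical Bayes; p-values adjusted by Benjamini-Hochberg over all tested genes), with no replicate block. The model was tested on simulated data. Each sample is 1 mouse, so limma p-values set the group difference against the spread between these mice, moderated by that of the other tested genes. Positions are from GENCODE M21 (GRCm38, the build mm10), promoters from RefSeq (GRCm38.p6). Other steps used Python 3.11.15 with pandas 2.3.3. The members and the 13 gene lists were chosen with earlier results of these data known. The genes named are the members, the 4 genes of each list with the highest mean, up to 3 per list with the smallest unadjusted p under 0.05 and groups that do not overlap, and the 5 genes with the nearest profile; some of these are not reported here; others named with a list are examples chosen after their values were seen. Models for read counts were planned only in case the tables held counts.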

Additional observations from a re-analysis of the deposited data

How the results depend on the processing

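The log2 fold changes of Car1, Klf1 and Gata1 kept their direction under every alternative that could be fitted. They also kept their side of the adjusted threshold of 0.05, with 1 exception: Car1 passed it without vehicle-treated mouse 3 (1.21). The log2 fold changes of Hba-a1 and Hbb-bs, a description with no test, kept the direction that the filter on low values favoured. With 1 mouse left out in turn, Car1 ranged from 1.21 to 2.98, Klf1 from 0.86 to 1.47, Hba-a1 from 1.66 to 3.53, Hbb-bs from 0.73 to 1.10, Gata1 from 0.13 to 0.31 and Epor from -0.39 to 0.01. Epor turned to 0.0282 with a pseudocount of 0.1 and to 0.0111 without JAK inhibitor-treated mouse 3; the cause was not tested. Hbb-bs without JAK inhibitor-treated mouse 3, Epor without vehicle-treated mouse 1, and both with a filter of 1 FPKM in 3 mice gave no value, since they no longer passed the filter. With Hbb-b1 and Hbb-b2 added, chosen after seeing the data, the vehicle mean of the summed globins was 2.42 FPKM against 0.046, and the JAK inhibitor mean 20.7 against 15.6, since Hbb-b2 was above 1 FPKM in all vehicle-treated mice. The number of erythroid genes past the adjusted threshold was 0 and ranged from 0 to 1 with 1 mouse left out.

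Over all genes, 15 passed the adjusted threshold, against 2 with no filter, 34 with a filter of 1 FPKM in 3 mice, 2 with an untrended prior, 63 with library weights, and 3 to 95 with 1 mouse left out (95 without vehicle-treated mouse 2, 94 without vehicle-treated mouse 3, 3 without JAK inhibitor-treated mouse 3). At an unadjusted p under 0.05, 742 genes were higher and 1062 lower, against 888 and 918 with quantile normalization. Dividing each library by its FPKM sum without the globins gave 990 higher and 753 lower. The globins summed to at most 55.7 FPKM in any mouse, so that setting is nearly a scaling by the whole FPKM sum. Scaling moved the median of all genes by less than 0.05 on the log2 scale. Deviations from the group mean were weakly correlated between same-numbered mice (0.016, 0.054 and 0.000). With 3 mice per group this cannot decide whether the numbers pair samples, and the main fit used no pairing. With the replicate number as a block, 67 genes passed the adjusted threshold, no erythroid gene did, and 5 listed erythroid genes were lower at an unadjusted p under 0.05 against 3 without it; the cause was not tested. The depth of the libraries is unknown, so values near 0 FPKM cannot be told from 0.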
